A study of Homo sapiens with 6 samples.

Results

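Collagen crosslinking and processing enzymes were followed as 10 genes in A673 cells, an established Ewing sarcoma line whose growth depends on the EWS-FLI1 fusion transcription factor. The genes were taken by symbol from the deposited expression table, and all 10 were among its 25268 symbols. They are the lysyl oxidases LOX, LOXL1, LOXL2, LOXL3 and LOXL4, the lysyl hydroxylases PLOD1, PLOD2 and PLOD3, the prolyl hydroxylase subunit P4HA3 and the collagen chaperone SERPINH1. RNA was sequenced 72 h after transfection with esiRNA, which is a pool of short interfering RNAs cut from a long double-stranded RNA. The groups were esiFLI1 (against the fusion), esiUSP9X (against USP9X, a deubiquitinase) and esiGFP (the non-targeting control), with 2 libraries each. All groups share the parental line and its fusion gene, no untransfected cells were analysed here, and separate cultures are not stated in the labels. The series asks whether USP9X keeps EWS-FLI1 stable. RNA levels bear on which genes moved with each knockdown, not on the protein.

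Collagen chains are modified inside the endoplasmic reticulum before they fold into a triple helix. Prolyl 4-hydroxylases stabilise the helix, lysyl hydroxylases prepare lysines for crosslinks and sugars, and the chaperone HSP47, encoded by SERPINH1, binds the folded procollagen on its way out. Outside the cell, lysyl oxidases use copper to oxidise lysine and hydroxylysine side chains, which then join neighbouring collagen or elastin molecules covalently. LOX is described in Ewing sarcoma cells as a gene that EWS-FLI1 represses.

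Values are FPKM, that is fragments corrected for the length of the transcript and for the number of fragments mapped in the library. They summed to between 781732 and 907926 in a library. With no read counts at hand, low values cannot be read as absence. One symbol, MIR6723, held between 33.2% and 50.9% of that sum. FLI1 was 12.7 and 14.1 FPKM in esiFLI1, against 24.1 and 36.4 FPKM in esiGFP. USP9X was 5.31 and 7.10 FPKM in esiUSP9X, against 20.6 and 26.5 FPKM in esiGFP. Of 8 genes listed as Ewing sarcoma markers, which include CCND1 and the fusion partners EWSR1 and FLI1, 7 were expressed, while CD99 was listed at 0 in every library. The summed level of the 8 was 393 and 356 FPKM in esiFLI1, 796 and 726 in esiUSP9X and 796 and 777 in esiGFP. CCND1 was its largest part, at 220 and 204 FPKM in esiFLI1, 413 and 394 in esiUSP9X and 472 and 459 in esiGFP, so the sum mostly follows that gene. Of 12 markers of endothelial, epithelial and blood cells, only KRT8 and KRT18 reached 1 FPKM in at least 2 libraries, and the other 10 summed to between 0.251 and 0.867 FPKM in a library. KRT8, an epithelial keratin, was 21.3 and 12.0 FPKM in esiFLI1, 14.5 and 8.39 FPKM in esiUSP9X and 7.63 and 4.12 FPKM in esiGFP. KRT18, also an epithelial keratin, was 221 and 129 FPKM in esiFLI1, 215 and 153 FPKM in esiUSP9X and 191 and 144 FPKM in esiGFP. Its groups overlapped, so the rise of KRT8 was not shared by KRT18. The part of KRT8 and KRT18 in the results was not tested. In bulk RNA, fewer cells with a transcript and less of it per cell cannot be told apart.

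Changes are differences of group means on the log2(FPKM + 1) scale, tested with limma over 12169 genes that had at least 1 FPKM in at least 2 libraries. This scale understates the change of genes with low FPKM. A gene is called at a Benjamini-Hochberg adjusted p under 0.05 over those genes. Samples with the same replicate number deviated together, so a second fit with replicate number as a block stands beside the first, and "blocked" marks its values. Of the 10 genes, 9 were tested. P4HA3 did not reach the minimum, and LOXL4 reached it only through the esiFLI1 libraries, so LOXL4 had to differ once it was tested.

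After FLI1 knockdown LOX and LOXL2 rose furthest of the 10 genes. On the log2(FPKM + 1) scale their relative LOXL3 rose by 0.44 and the 3 lysyl hydroxylases by 0.52 to 0.85. By ratio of mean FPKM LOXL3, at 1.51, lay just above PLOD1 (1.48) and PLOD2 (1.49) and below PLOD3 (1.88). limma called 3 of the 9 tested genes, LOX, LOXL2 and LOXL4, all higher, where 2.58% of all tested genes were called higher. The blocked fit called 8 of the 9 higher and 0 lower, all but SERPINH1, where 20.6% of all tested genes were called higher and 21.6% lower. The median log2 change over the 10 genes was 0.85, against -0.03 over all tested genes. In 7 of the 10 genes both esiFLI1 libraries lay above both esiGFP libraries, and 6 of these 7 were tested genes, where 19.8% of tested genes had that pattern. LOXL4, which had to differ once it was tested, is in each of these counts and adds no support to them. After USP9X knockdown 0 of the 9 were called in either fit.

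**Figure D1:**
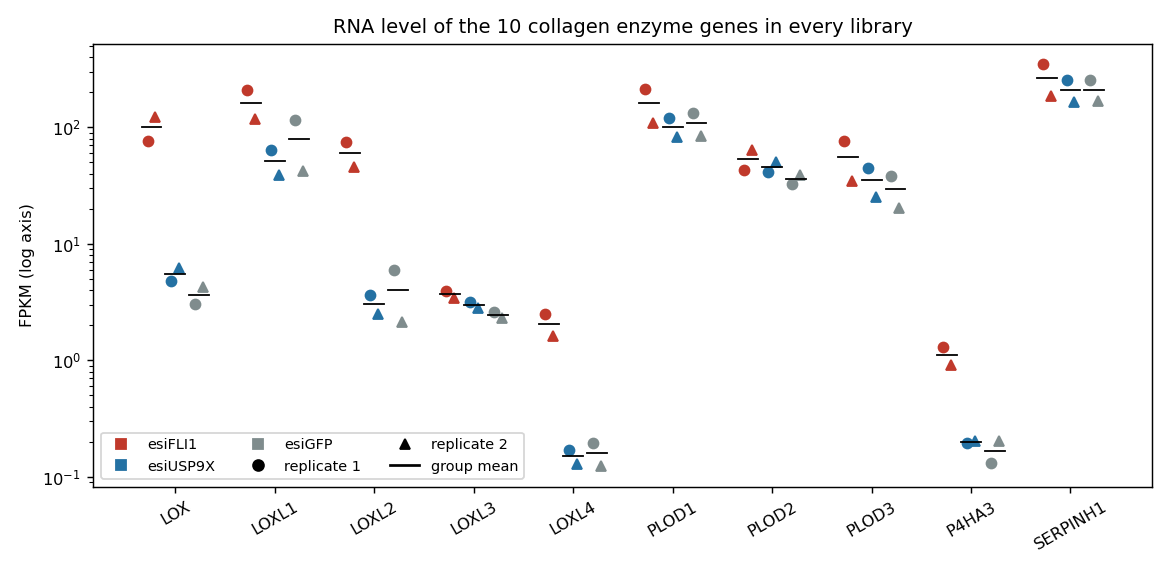
FPKM of the 10 genes (log axis) in each library, with esiFLI1 in red, esiUSP9X in blue and esiGFP in grey. Circles are replicate 1, triangles replicate 2, and lines the mean of 2 libraries. The esiFLI1 points of LOX, LOXL2, LOXL4 and P4HA3 stand clear of the others, while those of PLOD1, PLOD3 and SERPINH1 overlap with esiGFP.

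LOX, which oxidises lysines in fibrillar collagens and in elastin, was 76.8 and 123 FPKM in esiFLI1, against 3.02 and 4.27 FPKM in esiGFP. The means were 100.0 ± 32.7 and 3.65 ± 0.884 FPKM (SD, n = 2 each), a 27.4-fold ratio. Both esiFLI1 libraries were far above every other library. The log2 change was 4.42 (SE 0.31, limma adjusted p = 0.0077), with 4.28 at replicate 1 and 4.56 at replicate 2. Without esiGFP 1 or esiGFP 2, which left 1 control library, the log2 change was 4.22 or 4.61, and the call without a block ended. Of 25 alternatives 11 included the block, and those of all 6 libraries kept the call, with no filter as well (blocked adjusted p = 0.0295).

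LOXL2, which crosslinks collagen IV of basement membranes and carries scavenger receptor domains, was 74.9 and 45.8 FPKM in esiFLI1, against 5.94 and 2.15 FPKM in esiGFP. The ratio of the means was 14.9. LOXL2 ranked next to LOX in size of change, although its higher library was replicate 1 where that of LOX was replicate 2. The log2 change was 3.67 (SE 0.46, limma adjusted p = 0.027). Leaving out any 1 of the 6 libraries ended the call without a block. So did testing without a filter (adjusted p = 0.086) or with the compared groups alone (0.081). Blocked fits of all 6 libraries kept the call, with no filter as well (0.045).

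LOXL4, a close relative of LOXL2, was 2.49 and 1.60 FPKM in esiFLI1, against 0.195 and 0.123 FPKM in esiGFP, a 12.9-fold ratio of means at a low level. Its log2 change of 1.38 (SE 0.18, limma adjusted p = 0.030) is held down by the pseudocount, and it was 3.03 with a pseudocount of 0.1. The call without a block ended without esiFLI1 1, esiUSP9X 1, esiUSP9X 2, esiGFP 1 or esiGFP 2 (adjusted p from 0.075 to 0.22, the highest of all alternatives), with no filter (0.062) and with the compared groups alone (0.11). The blocked call (adjusted p = 3.6e-04) ended with no filter (0.056).

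LOXL1, which acts mainly on elastin, was the most abundant lysyl oxidase at baseline. It was 208 and 117.2 FPKM in esiFLI1, against 116.6 and 42.1 FPKM in esiGFP. The lower esiFLI1 library lay only just above the higher control. Its log2 change was 1.14 (SE 0.58, limma adjusted p = 0.45), with 0.83 at replicate 1 and 1.45 at replicate 2. The blocked fit called it (SE 0.17, adjusted p = 0.0017), a call that ended without esiFLI1 2 (0.054) or with no filter (0.13, the highest among the blocked alternatives).

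LOXL3, the remaining member of the family, moved least. It was 3.96 and 3.42 FPKM in esiFLI1, against 2.59 and 2.29 FPKM in esiGFP. The groups did not overlap, yet the log2 change was 0.44 (SE 0.17, limma adjusted p = 0.30; blocked adjusted p = 0.014). The blocked call ended without esiFLI1 1 (0.067), esiFLI1 2 (0.065), esiGFP 1 (0.066) or esiGFP 2 (0.060), with no filter (0.086) and under quantile normalization (0.11, the highest of these alternatives).

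FPKM is a per-length unit, so levels can be added across the family. Summed lysyl oxidase RNA was 367 and 291 FPKM in esiFLI1, 75.6 and 51.0 FPKM in esiUSP9X and 128 and 51.0 FPKM in esiGFP. Its make-up differed as well as its size. LOXL1 held 56.8% and 40.3% of the sum in esiFLI1, against 90.8% and 82.7% in esiGFP. LOX held 21.0% and 42.3% in esiFLI1, against 2.35% and 8.38% in esiGFP, and LOXL2 held 20.4% and 15.7%, against 4.63% and 4.22%. The LOXL1 share was lower in both esiFLI1 libraries than in every other library. LOXL3 and LOXL4 together stayed minor in all groups, with LOXL4 at most 0.678% of the sum. In esiUSP9X LOXL1 held 84.5% and 77.2%, LOX 6.31% and 12.1%, and LOXL2 4.80% and 4.87%.

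**Figure D2:**
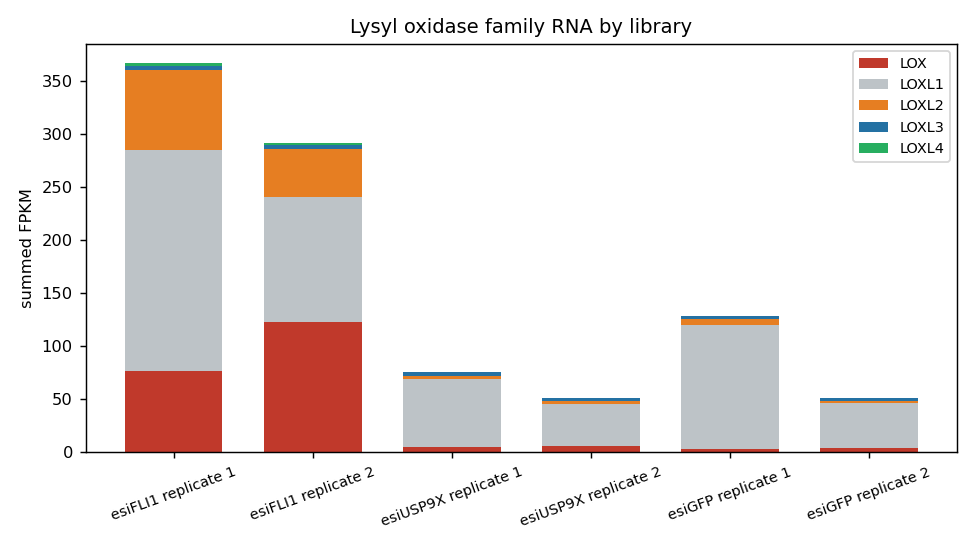
Summed FPKM of the 5 lysyl oxidase genes in each library, stacked by gene, with esiFLI1 on the left, esiUSP9X in the middle and esiGFP on the right. The esiFLI1 bars reach 367 and 291 FPKM and hold large LOX and LOXL2 segments, while LOXL1 fills most of the other 4 bars.

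Promoter sequence was set beside these levels because LOX and PLOD2 are known targets of hypoxia-inducible factors, while the fusion binds GGAA motifs. RefSeq windows of the 250 bases before the outermost annotated start (build GRCh38.p14, whereas the submitters' notes name hg19) were matched for 8 of the 10 genes. LOXL2 and P4HA3 were not matched. The windows below are LOX (chr5:122078260-122078509, minus strand), PLOD2 (chr3:146161185-146161434, minus strand), LOXL1 (chr15:73926212-73926461, plus strand) and LOXL4 (chr10:98268195-98268444, minus strand), shown because the first pair holds ACGTG and the second pair does not. Capitals mark GGAA and the hypoxia response cores ACGTG and GCGTG, on either strand (TTCC, CACGT and CACGC on the other), and neighbouring marks can share a base.
LOX: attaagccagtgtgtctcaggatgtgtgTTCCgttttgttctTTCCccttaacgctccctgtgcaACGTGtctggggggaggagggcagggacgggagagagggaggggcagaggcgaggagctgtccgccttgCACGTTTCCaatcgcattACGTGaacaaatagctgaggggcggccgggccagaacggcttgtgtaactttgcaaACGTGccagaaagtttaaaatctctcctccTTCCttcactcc 
PLOD2: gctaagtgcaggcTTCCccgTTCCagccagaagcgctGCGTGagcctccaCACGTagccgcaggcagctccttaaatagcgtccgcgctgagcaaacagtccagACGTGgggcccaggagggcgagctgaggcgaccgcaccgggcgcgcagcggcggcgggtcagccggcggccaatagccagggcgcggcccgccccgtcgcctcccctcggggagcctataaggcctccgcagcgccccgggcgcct 
LOXL1: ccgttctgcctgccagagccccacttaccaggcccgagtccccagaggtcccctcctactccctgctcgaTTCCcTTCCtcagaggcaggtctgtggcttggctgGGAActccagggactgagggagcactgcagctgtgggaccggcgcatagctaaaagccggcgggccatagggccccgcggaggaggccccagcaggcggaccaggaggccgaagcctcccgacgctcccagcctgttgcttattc 
LOXL4: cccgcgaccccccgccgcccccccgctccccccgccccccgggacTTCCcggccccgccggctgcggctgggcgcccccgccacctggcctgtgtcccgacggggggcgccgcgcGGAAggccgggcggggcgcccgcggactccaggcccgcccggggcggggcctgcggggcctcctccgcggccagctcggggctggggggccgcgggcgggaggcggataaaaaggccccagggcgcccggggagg

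The LOX window held 4 matches of ACGTG, a count reached by 0.669% of 35116 windows of this length. The PLOD2 window held 2 matches of ACGTG, as 7.52% of windows did or exceeded, and 1 of GCGTG. PLOD1 had 2 matches of GCGTG, and the other 6 genes had 0, where 32.2% of windows held at least 1 and 10.2% at least 2. At least 1 ACGTG was present in 18.5% of windows, and none of the 6 matched genes besides LOX and PLOD2 had one (0 matches each). GGAA occurred in all 8 windows, from 2 copies in LOXL4, PLOD1 and PLOD2 to 7 in PLOD3, and in 92.7% of all windows. Tandem GGAAGGAA, present in 3.06% of all windows, was in none of the 8 (0 matches), nor was the AP-1 motif TGANTCA (0 matches, 6.57% of all windows). The TEAD motif GGAATG had 2 matches in the LOXL3 window and none in the other 7. At least 1 match was in 11.9% of all windows, and at least 2 in 0.94%. TATAAA, present in 10.7% of all windows, was in none of the 8 (0 matches). GC content was 86.4% in the LOXL4 window and 55.2% in that of LOX. A match is letters in a window and not a measured binding site.

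The lysyl hydroxylases changed less than LOX and LOXL2, and all 3 were called in the blocked fit alone. PLOD3, which also adds sugars to hydroxylysine, was 76.1 and 34.4 FPKM in esiFLI1, against 38.5 and 20.2 FPKM in esiGFP. The groups overlapped, since replicate 2 of the knockdown was below replicate 1 of the control. At equal replicate number the log2 differences were 0.96 and 0.74. The change of 0.85 had a limma adjusted p of 0.56 (SE 0.54) and a blocked adjusted p of 7.9e-04 (SE 0.11), which became 0.066 with no filter, the highest of the blocked alternatives.

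PLOD2, which hydroxylates the telopeptide lysines used in stable crosslinks, was 43.3 and 64.2 FPKM in esiFLI1, against 32.9 and 39.4 FPKM in esiGFP. Its groups did not overlap, and its log2 change was 0.54 (SE 0.26, limma adjusted p = 0.43; blocked adjusted p = 0.0067). PLOD1, which hydroxylates lysines of the helix, was 213 and 109 FPKM in esiFLI1, against 134 and 84.5 FPKM in esiGFP, with overlapping groups. Its log2 change was 0.52 (SE 0.43, limma adjusted p = 0.68; blocked adjusted p = 0.011). The blocked call of PLOD2 ended without esiFLI1 2 (0.058) and that of PLOD1 without esiFLI1 1 (0.071), and both ended with no filter (0.11 for PLOD2, 0.16 for PLOD1, the highest blocked values).

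The make-up of the lysyl hydroxylases was read at equal replicate number. PLOD1 held 64.1% and 52.5% of their summed FPKM in esiFLI1, against 65.2% and 58.6% in esiGFP. PLOD2 held 13.0% and 30.9%, against 16.1% and 27.3%, and PLOD3 held 22.9% and 16.6%, against 18.8% and 14.0%. At both replicate numbers the PLOD3 share was higher and the PLOD1 share lower in esiFLI1, while the PLOD2 share was lower at replicate 1 and higher at replicate 2. The ranges of the groups overlapped for all 3, and the shares had no test.

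P4HA3, a catalytic subunit of prolyl 4-hydroxylase, was the rarest of the 10 transcripts in esiFLI1. It was 1.29 and 0.910 FPKM there, against 0.130 and 0.202 FPKM in esiGFP, a 6.64-fold ratio of means. The groups did not overlap, and the log2 change of 0.84 carries no test in the filtered fits. With no filter its limma adjusted p was 0.067, and 0.075 blocked. Its share of the 3 prolyl 4-hydroxylase alpha subunits was 1.35% and 0.847% in esiFLI1, against 0.264% and 0.346% in esiGFP. P4HA1 held the largest share, 62.1% and 77.4% in esiFLI1 and 82.2% and 87.3% in esiGFP.

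SERPINH1 was the most abundant of the 10 in every group and changed least in ratio. It was 350 and 184 FPKM in esiFLI1, against 254 and 168 FPKM in esiGFP. The groups overlapped, and the log2 change of 0.30 (SE 0.42, limma adjusted p = 0.84) was not called in the blocked fit either (adjusted p = 0.068, 95% interval 0.04 to 0.56). It was called in 3 of the 11 blocked alternatives, under quantile normalization (0.0087), with the sum without the most abundant symbol (0.0089) and without esiFLI1 2 (0.042), and the highest adjusted p of the 11 was 0.34.

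**Figure D3:**
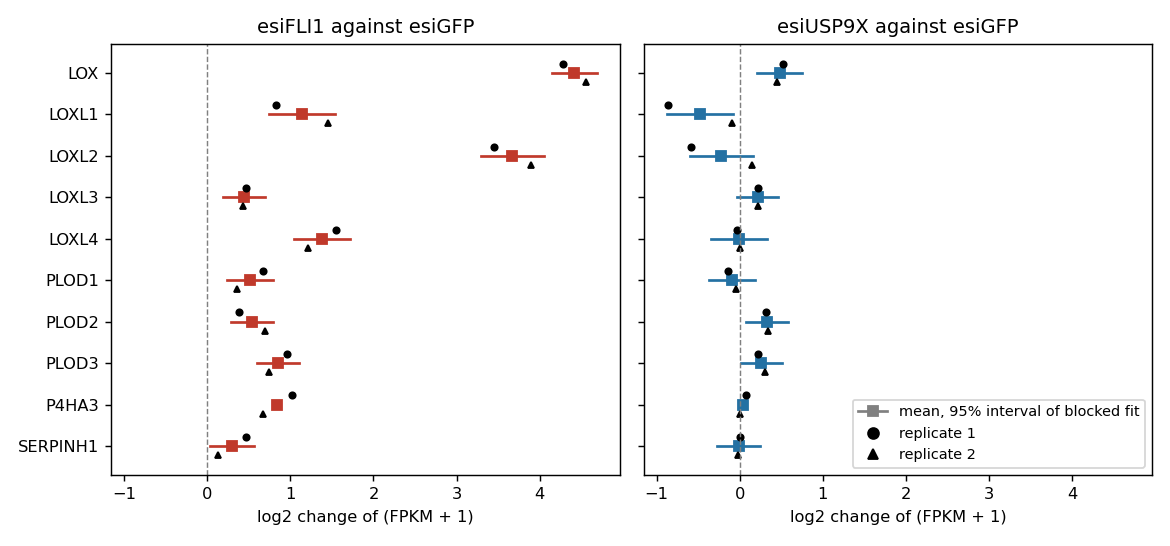
Log2 change of the 10 genes in esiFLI1 (left) and esiUSP9X (right) against esiGFP. Squares are mean changes with the 95% interval of the blocked fit (P4HA3 was not tested), and black points are the differences at replicate 1 (circles) and replicate 2 (triangles). LOX at 4.42 and LOXL2 at 3.67 stand apart on the left, while the changes on the right lie between -0.48 and 0.48.

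In USP9X knockdown cells the mean log2 changes of the same 10 genes lay between -0.48 and 0.48. Both knockdowns are set against the same esiGFP libraries. Without a block limma called 0 of the 9 tested genes, while 0.0247% of all tested genes were called. In that fit 0 of the 9 had an unadjusted p under 0.05, against 114 of the 12169 tested genes. USP9X itself, with a log2 change of -1.77 and an unadjusted limma p of 0.0012, was not called there. A lack of calls in the fit without a block therefore cannot show a lack of change. With the block 0 of the 9 were called, where 0.238% of all genes were, and USP9X was called (blocked adjusted p = 4.5e-04). Of the 9, 4 had an unadjusted p under 0.05 in the blocked fit, against 1321 of the 12169 tested genes. The median log2 change over the 10 genes was 0.02, against -0.01 over all tested genes.

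LOX was 4.77 and 6.17 FPKM in esiUSP9X, against 3.02 and 4.27 FPKM in esiGFP. Both esiUSP9X libraries were above both controls. The log2 difference was 0.48 (SE 0.31, limma adjusted p = 1; blocked adjusted p = 0.22, 95% interval 0.21 to 0.75). LOXL3 at 3.17 and 2.82 FPKM against 2.59 and 2.29 FPKM, and PLOD2 at 41.4 and 50.1 FPKM against 32.9 and 39.4 FPKM, also had both esiUSP9X libraries above both controls. Such a pattern held for these 3 of the 9 tested genes and for 8.75% of all tested genes. Their limma adjusted p was 1 for LOXL3 and for PLOD2, and 0.55 and 0.35 in the blocked fit.

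LOXL1 had the largest negative difference. It was 63.9 and 39.4 FPKM in esiUSP9X, against 117 and 42.1 FPKM in esiGFP. The gap lay at replicate 1, with a log2 difference of -0.86 there and -0.09 at replicate 2. The mean difference was -0.48 (SE 0.58, limma adjusted p = 1; blocked adjusted p = 0.39). No fit with both control libraries called it. With 1 control library it was -0.82 with the block and without esiGFP 2, and turned to 0.25 without a block and without esiGFP 1.

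LOXL2 was 3.63 and 2.48 FPKM in esiUSP9X, against 5.94 and 2.15 FPKM in esiGFP. LOXL4 was 0.170 and 0.129 FPKM, against 0.195 and 0.123 FPKM, and P4HA3 was 0.195 and 0.203 FPKM, against 0.130 and 0.202 FPKM. The esiUSP9X and esiGFP libraries of LOXL2, LOXL4 and P4HA3 overlapped, at levels far below those of esiFLI1. PLOD1 was 121 and 82.2 FPKM in esiUSP9X, against 134 and 84.5 FPKM in esiGFP. PLOD3 was 45.1 and 25.1 FPKM, against 38.5 and 20.2 FPKM, and SERPINH1 was 253 and 165 FPKM, against 254 and 168 FPKM. The blocked 95% interval of the log2 difference was -0.37 to 0.18 for PLOD1, 0.01 to 0.51 for PLOD3 and -0.27 to 0.25 for SERPINH1.

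The esiUSP9X libraries were compared with the esiFLI1 libraries to test the difference between the knockdowns. limma called 3 of the 9 tested genes lower in esiUSP9X, LOX (-3.93, adjusted p = 0.0089), LOXL2 (-3.89, adjusted p = 0.023) and LOXL4 (-1.39, adjusted p = 0.029), where 2.66% of all tested genes were lower. LOXL4 passed the minimum only through esiFLI1, so it had to differ here too. The LOX call ended without esiUSP9X 1 (0.12) or esiUSP9X 2 (0.089), and the LOXL2 call without any 1 of the esiUSP9X and esiFLI1 libraries (0.063 to 0.18) or with no filter (0.075). The LOXL4 call ended in 8 of 24 alternatives, without esiFLI1 1 or any 1 of the esiUSP9X and esiGFP libraries (0.072 to 0.23), with the compared groups alone (0.090) and with no filter (0.059, or 0.055 blocked). The blocked fit called 6 lower, adding LOXL1 (-1.62, adjusted p = 3.4e-04), PLOD1 (-0.61, 0.0056) and PLOD3 (-0.59, 0.0040), where 20.9% of all tested genes were called lower. These 3 calls ended with no filter (0.086 for LOXL1, 0.13 for PLOD1 and 0.092 for PLOD3, the highest of their blocked alternatives), and those of PLOD1 and PLOD3 also without esiUSP9X 1 (0.080 and 0.055). PLOD2 (-0.21), LOXL3 (-0.23) and SERPINH1 (-0.31) were not called in that fit, with adjusted p of 0.17, 0.13 and 0.060. SERPINH1 was called lower in 5 of the 11 blocked alternatives, with adjusted p from 0.010 to 0.35 over the 11.

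The order of levels differed between the groups mainly through LOX and LOXL2. In esiFLI1 the means ran from SERPINH1 (267 FPKM) through LOXL1 (163), PLOD1 (161), LOX (100.0), LOXL2 (60.3), PLOD3 (55.3) and PLOD2 (53.7) to LOXL3 (3.69), LOXL4 (2.04) and P4HA3 (1.10). The first 4 of these overlapped with their neighbours, as did LOXL2, PLOD3 and PLOD2. In esiGFP they ran from SERPINH1 (211 FPKM) through PLOD1 (109), LOXL1 (79.3), PLOD2 (36.2), PLOD3 (29.4), LOXL2 (4.05), LOX (3.65) and LOXL3 (2.44) to P4HA3 (0.166) and LOXL4 (0.159). There PLOD1 overlapped with LOXL1, PLOD2 with PLOD3, LOXL2 with LOX, and P4HA3 with LOXL4. LOX was thus 4th in esiFLI1 and 7th in esiGFP, and 6th in esiUSP9X.

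The 10 genes also differed by replicate number. In every group 7 of them were higher in replicate 1, while LOX and PLOD2 were higher in replicate 2. The mean difference of replicate 2 minus replicate 1 on the log2 scale was 0.46 for LOX and 0.36 for PLOD2, against -0.99 for LOXL1, -0.95 for PLOD3, -0.75 for LOXL2, -0.72 for PLOD1 and -0.71 for SERPINH1. LOX and PLOD2 had the lowest GC content of the 10 in their longest GENCODE v29 transcript, 39.6% and 34.4%, and LOXL1 the highest, 67.6%. Over 11470 tested genes with a transcript, GC content and the replicate difference had a Pearson r of -0.80 across genes, which are not independent and share these libraries. The same r for GC content and the esiFLI1 change was -0.11. The part of GC content in any single change was not tested.

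**Figure D4:**
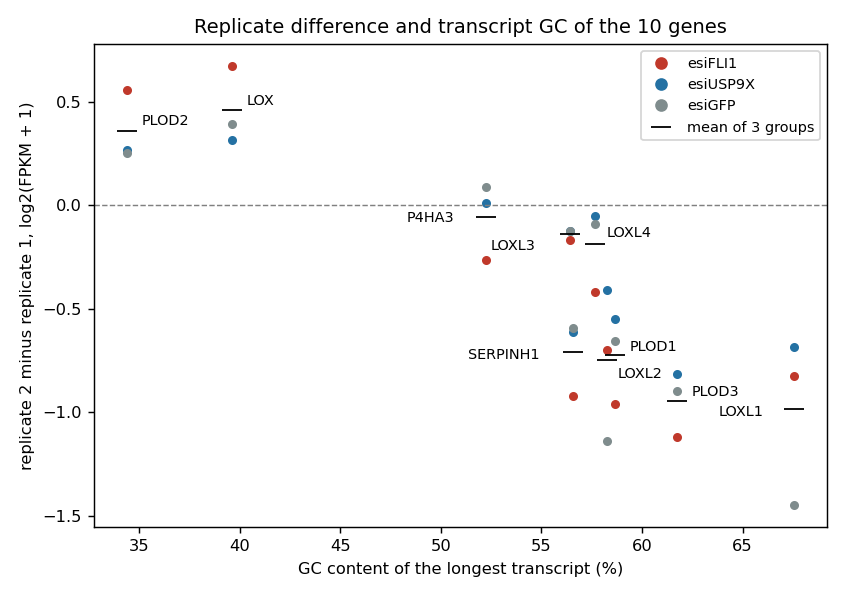
Replicate 2 minus replicate 1 on the log2(FPKM + 1) scale (vertical) against the GC content of the longest transcript in % (horizontal) for the 10 genes. Points are esiFLI1 (red), esiUSP9X (blue) and esiGFP (grey), and dashes the mean of the 3. LOX and PLOD2, at 39.6% and 34.4% GC, are the only genes above 0 in all groups.

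Genes that overlap the 10 in GENCODE v29 were listed, because the strand setting of the authors' counting is not stated. Noncoding genes that overlap LOXL2, LOXL4, PLOD2 and P4HA3 had no FPKM values, so their levels are unknown. LOXL1-AS1, antisense to LOXL1, was 7.17 and 6.51 FPKM in esiFLI1, against 5.86 and 5.02 FPKM in esiGFP, far under LOXL1 itself. SRFBP1, opposite to LOX, was 8.54 and 16.2 FPKM in esiFLI1, against 9.89 and 19.3 FPKM in esiGFP, lower at each replicate number where LOX was higher. SRFBP1 exceeded LOX in both esiGFP libraries, so the control level of LOX, and its ratio, are uncertain. DOK1 and HTRA2, opposite to LOXL3, exceeded LOXL3 in all 6 libraries, with DOK1 at 9.94 and 5.66 FPKM in esiFLI1, against 10.3 and 6.30 FPKM in esiGFP, so the level of LOXL3 is uncertain. PPME1, opposite to P4HA3, was 28.3 and 16.5 FPKM in esiFLI1, against 34.7 and 25.0 FPKM in esiGFP, so P4HA3 is uncertain too. ZNHIT1, opposite to PLOD3, was 42.1 and 27.3 FPKM in esiFLI1, against 46.1 and 29.3 FPKM in esiGFP, where it exceeded PLOD3 at each replicate number. ENTPD4, on the strand of LOXL2, was 15.5 and 16.4 FPKM in esiFLI1, against 12.8 and 12.7 FPKM in esiGFP, where it exceeded LOXL2. The control levels of PLOD3 and LOXL2, and their ratios, are therefore uncertain as well. ENTPD4, at 12.3 and 13.1 FPKM, also exceeded LOXL2 in both esiUSP9X libraries.

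Among 11407 tested genes outside the 10, with symbols of small or uncharacterised RNAs left out, those whose centred log2(FPKM + 1) values over the 6 libraries came closest to LOX were TGFB2, a growth factor, TDO2, a tryptophan-degrading enzyme, MGP, a calcification inhibitor, and ANKRD1, a nuclear ankyrin repeat protein. Their root mean square differences from LOX were 0.21, 0.24, 0.27 and 0.28 on the log2 scale. TDO2 was 20.1 and 33.4 FPKM in esiFLI1, 0.473 and 1.41 FPKM in esiUSP9X and 0.611 and 0.952 FPKM in esiGFP, with the higher library of each group at replicate 2, as for LOX and MGP. TGFB2 was 30.9 and 42.8 FPKM in esiFLI1, 1.32 and 1.39 FPKM in esiUSP9X and 1.06 and 0.828 FPKM in esiGFP, so that its order in esiGFP was the other way, as it was for ANKRD1. MGP passed the minimum only through esiFLI1.

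The other genes of the collagen pathway were counted from lists of the steps before and after crosslinking. Of 14 other procollagen-modifying genes of the endoplasmic reticulum, all tested, limma called 0 without a block, and the blocked fit called 9 higher and 1 lower (median 0.41), where it called 20.6% of all tested genes higher and 21.6% lower. With no filter 3 of these 10 blocked calls remained, P4HA2, LEPREL1 and CRTAP. P4HA2, another prolyl 4-hydroxylase subunit, was 35.0 and 23.4 FPKM in esiFLI1, against 8.65 and 7.17 FPKM in esiGFP (1.74, limma adjusted p = 0.053; blocked adjusted p = 4.1e-05). LEPRE1, prolyl 3-hydroxylase 1, rose by 0.79 (blocked adjusted p = 0.0011) and LEPREL1, prolyl 3-hydroxylase 2, by 0.44 (blocked adjusted p = 0.0085). TMEM38B, an ion channel of the endoplasmic reticulum needed for collagen modification, fell by 0.96 (blocked adjusted p = 6.3e-04), at 2.67 and 5.30 FPKM in esiFLI1, against 6.66 and 10.4 FPKM in esiGFP.

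Of 12 tested genes of procollagen export, limma called 0 without a block and the blocked fit called 5 higher and 0 lower (median 0.10), against 20.6% and 21.6% of all tested genes. With no filter 2 of the 5 remained, SEC24D and CREB3L2. SEC24D and SEC23A, coat proteins of export vesicles, rose by 0.94 and 0.80, and CREB3L2 and CREB3L1, transcription factors of the secretory pathway, by 1.04 and 1.29 (blocked adjusted p at most 9.1e-04). Of the propeptide proteases and their enhancers 4 of 10 were tested, with 0 called without a block and 4 higher in the blocked fit (20.6% of all tested genes), of which 0 remained with no filter (adjusted p from 0.052 to 0.12). BMP1, which cuts the procollagen propeptide and also activates pro-LOX, was 37.7 and 20.2 FPKM in esiFLI1, against 8.53 and 4.62 FPKM in esiGFP (1.97, limma adjusted p = 0.091; blocked adjusted p = 5.1e-05). PCOLCE, which enhances BMP1, rose by 1.73, PCOLCE2 by 0.45 and TLL1, a relative of BMP1, by 0.48 in the blocked fit (adjusted p at most 0.015).

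Of 7 tested matrix partners of the lysyl oxidases, 2 were called higher in esiFLI1 without a block and 5 with it, and 0 lower in either (median 1.11), where 2.58% and 20.6% of all tested genes were called higher. With no filter 1 call without a block remained, FBN1, and 2 blocked calls, FBN1 and POSTN. The pair was FBN1, a microfibril protein (3.14), and POSTN, which binds BMP1 and collagen (5.46). FBLN5, an elastic fibre protein (35.7 and 23.2 FPKM in esiFLI1, against 15.6 and 12.3 FPKM in esiGFP), and BGN, a small proteoglycan (1.64), rose in the blocked fit (adjusted p at most 3.7e-04). Elastin itself, ELN, was 22.5 and 8.22 FPKM in esiFLI1, against 17.3 and 9.94 FPKM in esiGFP, with a log2 change of 0.06 (limma adjusted p = 0.98), and was chosen after its values were seen. Copper supply genes, 4 of 5 tested, gave 0 calls without a block and 1 lower in the blocked fit, the copper importer SLC31A1 (-0.30, adjusted p = 0.043, or 0.098 with no filter), where 21.6% of all tested genes were called lower.

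Of 8 tested fibril-forming collagen genes, the substrates of these enzymes, 3 were called higher without a block and 7 with it, and 0 lower (median 2.24), where 2.58% and 20.6% of all tested genes were called higher. COL11A1, at 13.0 and 12.9 FPKM in esiFLI1, 0.0845 and 0.0822 FPKM in esiUSP9X and 0.0619 and 0.0680 FPKM in esiGFP, passed the minimum only through esiFLI1, so it had to differ once it was tested. With no filter 2 of the 3 calls remained, COL11A1 and COL5A2, and 5 of the 7 blocked calls, all but COL5A1 and COL5A3. COL11A1 rose by 3.71, COL5A2 by 1.36 and COL3A1 by 3.35 (limma adjusted p at most 0.034), and COL5A1 by 2.29 in the blocked fit. Summed over 11 such genes, collagen RNA was 2298 and 1236 FPKM in esiFLI1, against 463 and 202 FPKM in esiGFP, a 5.32-fold ratio of means, where the ratio was 3.67 for the lysyl oxidase sum and 1.55 for the lysyl hydroxylase sum. For each 100 FPKM of collagen there were 15.9 and 23.5 FPKM of lysyl oxidase in esiFLI1, 17.6 and 19.3 in esiUSP9X and 27.7 and 25.3 in esiGFP. Lysyl hydroxylase RNA on that scale was 14.5 and 16.8 in esiFLI1, against 44.3 and 71.5 in esiGFP, and SERPINH1 was 15.2 and 14.9, against 54.8 and 83.3. Relative to collagen RNA, each of these 3 was thus lower in both esiFLI1 libraries than in both controls, and for lysyl oxidase by the least. The lysyl oxidase ratio was also lower in both esiUSP9X libraries than in both controls. The ratios had 2 libraries a group and no test.

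Of 15 tested hypoxia genes outside collagen processing, limma called 2 higher (2.58% of all tested genes) and 0 lower without a block. The blocked fit called 4 higher and 7 lower (median -0.12), where it called 20.6% of all tested genes higher and 21.6% lower. NDRG1, a stress-response gene, was counted among the 4 and passed the minimum only through esiFLI1. With no filter 1 call without a block remained, EPAS1, and 3 blocked calls, EPAS1, VEGFA and PGK1. EPAS1, the alpha subunit of hypoxia-inducible factor 2, was 8.21 and 6.46 FPKM in esiFLI1, against 0.243 and 0.130 FPKM in esiGFP (2.81, limma adjusted p = 0.0068). It too passed only through esiFLI1, so EPAS1 and NDRG1 had to differ once tested and add no support to these counts. ADM, a vasodilator peptide, rose by 2.99 (limma adjusted p = 0.047), while VEGFA, a vascular growth factor, fell by 1.08 and PGK1, a glycolytic enzyme, by 0.84 in the blocked fit (adjusted p at most 4.4e-04). HIF1A was 66.0 and 110 FPKM in esiFLI1, against 54.5 and 86.7 FPKM in esiGFP (0.30, blocked adjusted p = 0.039, or 0.12 with no filter). In esiUSP9X against esiGFP limma called 0 genes of the pathway, matrix, copper, collagen and hypoxia lists in either fit. Over all tested genes 0.0247% were called without a block and 0.238% with it, so this 0 cannot show a lack of change. Of the Ewing sarcoma markers, STEAP1 (-1.28) and CCND1 (-1.13) were called lower in esiFLI1 (limma adjusted p at most 0.033), and PPP1R1A (-1.97) and NKX2-2 (-1.40) in the blocked fit.

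**Figure D5:**
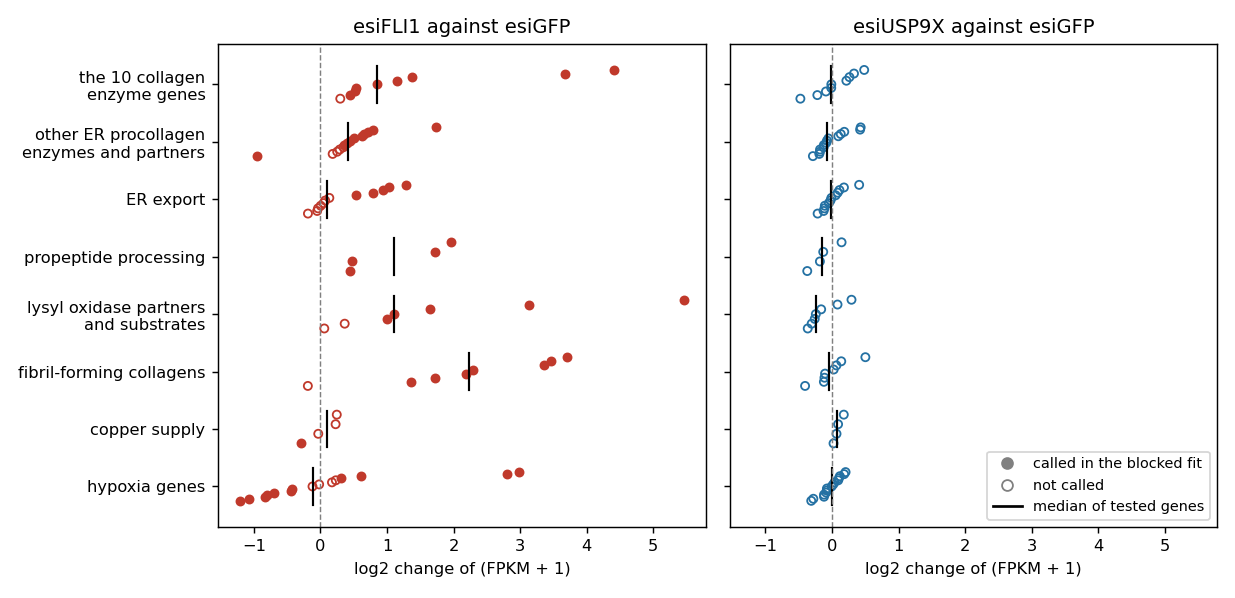
Log2 change of the tested genes of each list in esiFLI1 (left) and esiUSP9X (right) against esiGFP, where filled points were called in the blocked fit and black bars are medians. The 10 enzyme genes (9 tested, median 0.85) lie between the fibril-forming collagens (median 2.24) and the other genes of the endoplasmic reticulum (median 0.41) on the left, and the medians on the right lie between -0.24 and 0.08.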

How the data were processed

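RNA was measured in 6 libraries of A673 cells (3 groups, 2 libraries each). Per the labels' protocols, 2 µg of total RNA were depleted of ribosomal RNA and made into stranded libraries, read as 75-nt single ends. The deposited table holds FPKM made by the authors, 1 value per gene symbol and library; hg19 and GRCh37 are the builds, and TopHat, Cufflinks and Cuffdiff the tools, listed in the submitters' processing notes. Their versions, the annotation and the strand setting are not given in the sources used. A stray last line was dropped (1 line). Read depth is unknown, so no counting intervals were made.

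Log2(FPKM + 1) was fitted by limma 3.58.1 under R 4.3.3 (lmFit, eBayes with a trend, two-sided, Benjamini-Hochberg) over the 12169 genes that reached 1 FPKM in 2 or more libraries, all 6 libraries in 1 fit. It had 3 residual and 2.21 prior degrees of freedom, and the blocked fit 2 and 5.72. The labels give replicate numbers but no shared day. Deviations from group means at the same number correlated across genes at 0.644 (esiFLI1, esiUSP9X), 0.647 (esiFLI1, esiGFP) and 0.589 (esiUSP9X, esiGFP), so the pairing comes from the data. Separate cultures are not stated, so the p-values cover only the spread between these libraries, which may be technical. The fits were also run on simulated data with independent noise and a shift between replicates. That check required estimates to follow the set changes, with no called change of wrong sign. It set no limit on false calls, so it cannot vouch for the number of calls. The 10 genes and the lists were chosen with earlier results of these data known. All 10 are named. From each other list, the 4 called genes with the smallest adjusted p (no block) in esiFLI1 are named, and for LOX the 4 closest profiles. CD99, KRT8, KRT18, P4HA1, CRTAP, ELN, COL5A3, HIF1A, NDRG1 and the overlapping genes were named after their values were seen. GC content came from GENCODE v29 and promoters from RefSeq (GRCh38.p14). Alternatives were other pseudocounts, filters, scalings, blocks and left-out libraries.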

Additional observations from a re-analysis of the deposited data

How the results depend on the processing

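Without a block, limma called 3 of the collagen enzyme genes in esiFLI1 against esiGFP, and 1 with no filter or with the compared groups alone. With the replicate block it called 8, also with median-of-ratios scaling or quantile normalization, 9 with the sum without the most abundant symbol, and 2 with no filter. Leaving out a library, with or without the block, gave 0 to 8. In esiUSP9X against esiFLI1 the count was 3, 1 with no filter, 6 with the block (also with median-of-ratios scaling), 7 with the block under the other scalings, 2 with the block and no filter, and 0 to 7 without a library. In esiUSP9X against esiGFP it was 0, and 0 to 1 without a library. Over all tested genes limma called 342 in esiFLI1 against esiGFP, 139 with a filter of 5 FPKM, 56 with the compared groups alone and 5125 blocked. The blocked count was 5557, 4710 and 4970 with median-of-ratios, quantile and sum scaling and 779 with no filter. Without a library the count was 2 to 136 with no block and 2640 to 4670 with it. In esiUSP9X against esiFLI1 it called 375, with 154 and 69 under those 2 settings, 4996 blocked, 5438, 4863 and 4788 blocked with the scalings, 872 blocked with no filter, and, without a library, 3 to 148 with no block and 2637 to 5378 with it. In esiUSP9X against esiGFP it called 3, with 8 without a filter, 29 blocked, 33, 34 and 20 blocked with the scalings, and, without a library, 3 to 5 with no block and 9 to 271 with it. Scaling moved the median gene of the esiFLI1 comparison to between -0.10 and 0.10 (log2). Directions turned only in changes that were called neither in the main fit without a block nor in the main blocked fit. Among them, SERPINH1 was called in some blocked alternatives of esiFLI1 against esiGFP and of esiUSP9X against esiFLI1. Under quantile normalization, blocked or not, the esiUSP9X change became 0.055 for LOXL4 and 0.016 for SERPINH1, and 0.039 for SERPINH1 with the sum scaling, blocked or not. Leaving out a library gave esiUSP9X changes from -1.20 to 0.25 for LOXL1, -0.79 to 0.35 for LOXL2, -0.11 to 0.092 for LOXL4, -0.42 to 0.24 for PLOD1, -0.19 to 0.71 for PLOD3 and -0.32 to 0.29 for SERPINH1. It gave -0.16 to 0.76 for SERPINH1 in esiFLI1 against esiGFP, and -0.49 to 0.072 for PLOD2 and -0.77 to 0.15 for SERPINH1 in esiUSP9X against esiFLI1. The cause of these changes was not tested. P4HA3 had a tested value only with no filter, and LOXL3 and LOXL4 none with a filter of 5 FPKM. The block with other scalings or with no filter was added after seeing the data. Fits without a library leave 1 library in a group. With the block some of them gave extremely small adjusted p, so their calls were not taken as support. Without depth, the precision of genes near or under 1 FPKM, such as P4HA3 and LOXL4, is unknown.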
